A study of Mus musculus with 10 samples.

Results

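Nkx2-1, Foxa1, Foxa2, Gata6, Etv5, Elf3 and Klf5 encode transcription factors that set and keep the identity of lung epithelial cells. These 7 genes were chosen by name from the 33347 genes of the deposited count table, and all 7 were measured in all 10 libraries. The tissue was lung of wild-type (WT) mice that had been administered bleomycin, an antibiotic used to bring about lung fibrosis in rodents. The mice had also been injected with bone marrow cells of either high activity of aldehyde dehydrogenase (the ALDHbr group, 5 libraries) or low activity (the ALDHdim group, 5 libraries). Both groups therefore carried the injury and a cell transfer, and no uninjured or untransferred lung was analysed here. Age, sex, bleomycin dose and the time between injury, transfer and sampling were not given in the sources used here.

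Nkx2-1 is a homeodomain protein that marks the lung primordium and is later needed in alveolar and airway epithelium, where it drives surfactant and secretoglobin genes and holds back stomach genes. Foxa1 and Foxa2 are forkhead proteins that can bind closed chromatin and act beside Nkx2-1 on many of the same genes. Gata6 is a zinc finger protein of early lung endoderm. Etv5 is an ETS-domain protein induced by fibroblast growth factor (FGF) receptors through ERK, and it supports the alveolar type 2 state. Elf3 is an epithelium-restricted ETS-domain protein, and Klf5 is a zinc finger protein of airway and alveolar epithelium that takes part in the choice of alveolar cell fate after injury.

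Promoter sequences are shown first, because they show what sites these factors are known to read. RefSeq promoter windows on GRCm38.p6 were searched for 5 of the 7 genes (Nkx2-1, Foxa1, Foxa2, Etv5 and Elf3). No window of Gata6 or Klf5 was searched, which does not show that none exists. The 250 bases before each RefSeq start were searched on both strands. The letters CTCAAG stood for the Nkx2-1 core and TGTTTNC for the forkhead core. Over all 32851 promoter windows of that length, 13.3% held CTCAAG and 17.8% held TGTTTNC. The surfactant gene Sftpb, a textbook target of Nkx2-1 and the Foxa proteins, and the airway secretoglobin gene Scgb3a1, whose levels were among the most like those of Klf5 below, held both. Chad, as like Klf5 as Scgb3a1, held 2 matches to TGTTTNC and 0 to CTCAAG. The sequences run 5′ to 3′ on the gene's strand and end at the base before the start, with matches to either core in capitals.
Sftpb, chr6:72304360-72304609, plus strand: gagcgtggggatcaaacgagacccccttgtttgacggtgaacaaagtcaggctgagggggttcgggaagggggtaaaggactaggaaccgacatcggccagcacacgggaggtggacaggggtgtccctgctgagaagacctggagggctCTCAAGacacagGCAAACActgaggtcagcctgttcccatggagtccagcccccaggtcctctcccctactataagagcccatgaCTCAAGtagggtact
Scgb3a1, chr11:49663345-49663594, plus strand: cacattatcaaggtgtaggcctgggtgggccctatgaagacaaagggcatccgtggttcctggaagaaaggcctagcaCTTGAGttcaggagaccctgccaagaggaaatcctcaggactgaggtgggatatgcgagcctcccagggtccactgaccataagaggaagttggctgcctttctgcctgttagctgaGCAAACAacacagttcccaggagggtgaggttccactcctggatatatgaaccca

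In the Sftpb window the matches to CTCAAG began 100 and 15 bases before the start and the match to TGTTTNC began 88 bases before it. Among the factors, TGTTTNC matched once in the Foxa1 window, 141 bases before the RefSeq start. It also matched once in 1 of the 2 Etv5 windows, 183 bases before the RefSeq start of that window. Both matches read GTAAACA on the gene's strand, and 29 bases around each are shown because these were the factor genes whose own windows held the forkhead core.
Foxa1, chr12:57546235-57546263, minus strand: tatactgctttGTAAACAaagtgagggcc
Etv5, chr16:22439736-22439764, minus strand: ctgaagacaggGTAAACAagaggtgatgg
The Nkx2-1 and Elf3 windows held neither core, and of the 3 Foxa2 windows 1 held CTCAAG. Cores of the other factor families were searched too, with AGATAA standing for the Gata6 family, AGGAAGT for the ETS family and CCACCC for the Klf5 family, which 9.99%, 7.69% and 28.1% of all windows held. Of the factors' windows, AGATAA matched in 1 of Foxa2, AGGAAGT in 1 of Foxa2, and CCACCC in 2 of Foxa2, 1 of Etv5 and that of Elf3. Scgb3a1 held AGGAAGT and CCACCC, and Sftpb and Chad held none of these 3. Some windows lie within the gene spans given below, so their RefSeq starts are inside the annotated gene. These were the Foxa1 window, the Etv5 window with CCACCC and the Foxa2 windows with AGGAAGT or CTCAAG. The Etv5 window with TGTTTNC and the Elf3 window lie partly within the gene spans, and their RefSeq starts are inside the annotated gene as well. The printed Etv5 stretch lies outside the gene span. Annotated exon took 149 bases of the Etv5 window with TGTTTNC, 96 of the Elf3 window and 10 of the Foxa1 window. A match of letters is a description of the sequence and does not show binding.

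The libraries held between 588063 counts (ALDHbr 2) and 2002947 counts (ALDHdim 2), and all 7 genes passed the filter on low counts. ALDHbr 3 and ALDHbr 5 stood apart in having the most genes with at least 1 count, 24722 and 25377 against 17044 to 21209 in the other libraries. Epithelial transcripts were plentiful, as the tissue label implies. Alveolar type 2 genes took 2.66 to 4.82% of all counts and club cell genes 2.22 to 6.16%. Markers of smooth muscle, endothelium, fibroblasts, macrophages, mesothelium and cardiac-type muscle were present as well. In bulk tissue, fewer cells of a type and less RNA per cell cannot be told apart. The labels number the samples without naming the animals, so p-values measure the spread between samples, which may in part be technical.

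Nkx2-1 was the highest of the 7 factors, Klf5 the next, Foxa1 the last but 1 and Elf3 the lowest in 10 of 10 libraries, while the order of Foxa2, Gata6 and Etv5 varied. Levels are CPM, the counts scaled to a common library size by TMM, and since reads come from transcript 3′ ends they do not scale with transcript length. Nkx2-1 was the most abundant at 151 ± 29.5 CPM (SD, n = 10), above 90.5% of the 10844 genes tested. Klf5 followed at 87.1 ± 15.1 CPM. Foxa2 (66.8 ± 11.1 CPM), Gata6 (66.45 ± 8.39 CPM) and Etv5 (60.7 ± 11.3 CPM) lay within each other's spread, and Foxa2 exceeded Gata6 in 4 of 10 libraries. Foxa1 averaged 34.7 ± 10.8 CPM, so that it made up 27.3 to 43.3% of the combined Foxa1 and Foxa2 counts. Elf3 was the least abundant at 19.3 ± 5.13 CPM, with as few as 9 counts in ALDHbr 5. Nkx2-1 exceeded Klf5, Klf5 exceeded Foxa2, Etv5 exceeded Foxa1 and Foxa1 exceeded Elf3 in 10 of 10 libraries.

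**Figure D1:**
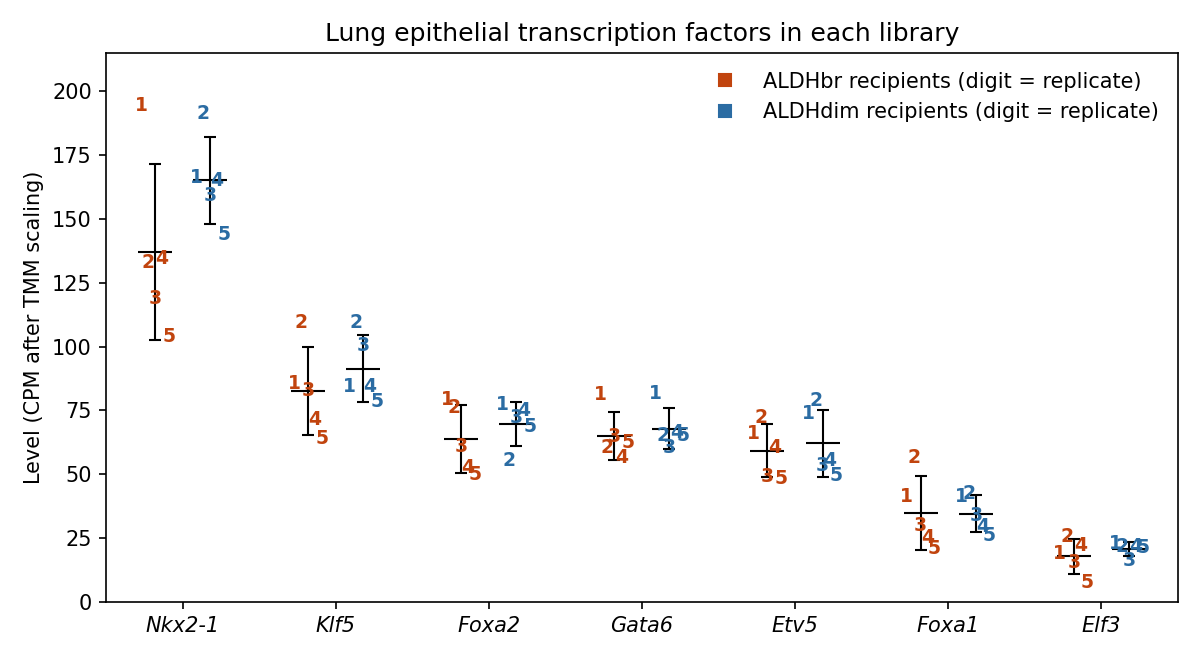
Level of each factor (vertical axis, CPM after TMM scaling) in each library, with ALDHbr recipients in orange and ALDHdim recipients in blue, the digit giving the replicate and the black bars the mean and SD of 5 libraries. Nkx2-1 lies highest, ALDHbr 5 is the lowest library for 6 of the 7 factors, and the groups overlap for each factor.

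No factor differed between recipients of ALDHbr and ALDHdim cells beyond the spread between libraries. By edgeR's quasi-likelihood test 0 of the 7 passed an adjusted p of 0.05, and 0 had an unadjusted p under 0.05. Across all 10844 genes tested, 0 genes (0%) passed and 402 (3.71%) had an unadjusted p under 0.05. DESeq2 and limma-voom also called 0 of the 7. The groups' CPM values overlapped for each of the 7 factors, and over all genes they did not overlap for 0.535%. All 7 fitted estimates were lower in ALDHbr recipients, although the plain means of Foxa1 were not, with a median log2 fold change of −0.13, where 48.1% of all genes had lower estimates and the median was 0.01. That count fell to 5 of 7 without ALDHbr 4, ALDHdim 1 or ALDHdim 2, to 6 without ALDHbr 5, and to 4 (median −0.01) without both ALDHbr 3 and ALDHbr 5.

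Nkx2-1, the lineage factor itself, had the smallest unadjusted p of the 7. It stood at 194, 133, 119, 135 and 104 CPM in ALDHbr recipients 1 to 5 and at 166, 191, 159, 165 and 144 CPM in ALDHdim recipients 1 to 5. ALDHbr 1 held the highest value of all libraries, while the other 4 ALDHbr values lay below the lowest ALDHdim value. Means with SD were 137 ± 34.4 CPM and 165 ± 17.1 CPM, and the log2 fold change was −0.26 (SE 0.16, edgeR adjusted p = 0.99925, as for the other 6 factors). The 95% interval of the fold ran from 0.66 to 1.05. The scatter of Nkx2-1 within the ALDHbr group was 11.5 times that of counting error alone, as chi-square per degree of freedom, and 3.31 times within the ALDHdim group. That measure grows with the count, and relative to the mean the ALDHbr spread was wider for Foxa1 and Elf3. Leaving out ALDHbr 1 moved the log2 fold change of Nkx2-1 to −0.44, and leaving out both ALDHbr 3 and ALDHbr 5 moved it to −0.08. Over all genes, the share with an unadjusted edgeR p under 0.05 moved as well, from 3.71% to 10.4% and 2.46% in that order.

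The Foxa pair differed little between groups. Foxa2 was at 79.2, 76.3, 60.8, 52.7 and 49.98 CPM in ALDHbr recipients 1 to 5 and at 77.4, 55.5, 72.3, 74.9 and 68.7 CPM in ALDHdim recipients 1 to 5, a log2 fold change of −0.13 (SE 0.16). ALDHbr 4 and 5 were the lowest for Foxa2, and ALDHdim 2 was the lowest of its group. Foxa1 was at 41.2, 56.7, 29.8, 25.2 and 20.8 CPM in the ALDHbr group and at 41.2, 42.4, 34.0, 29.5 and 25.8 CPM in the ALDHdim group. Its means were 34.7 ± 14.4 and 34.6 ± 7.2 CPM, while the fitted log2 fold change was −0.06 (SE 0.24), so the means and the fit differ in sign and give Foxa1 no direction. ALDHbr 2 was the highest and ALDHbr 5 the lowest of all 10 libraries for Foxa1, a 2.72-fold range within 1 group. The sign of the Foxa1 estimate turned without ALDHbr 4, ALDHbr 5, ALDHdim 1 or ALDHdim 2, each to an estimate of at most 0.09.

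Gata6 was the steadiest of the 7, with a coefficient of variation of 12.6% over all libraries. Its values were 81.1, 60.6, 64.7, 56.6 and 62.5 CPM in ALDHbr recipients 1 to 5 and 81.6, 65.1, 60.4, 66.5 and 65.4 CPM in ALDHdim recipients 1 to 5, with replicate 1 highest in both groups. The log2 fold change was −0.05 (SE 0.14), and the interval of the fold ran from 0.79 to 1.19. Its sign turned without ALDHdim 1 (0.02) or ALDHbr 4 (0.0028). Klf5 stood at 85.5, 110, 82.8, 71.6 and 64.1 CPM in the ALDHbr group and at 84.5, 109, 100.4, 84.2 and 78.6 CPM in the ALDHdim group, with replicate 2 highest in both. Its log2 fold change was −0.17 (SE 0.15), with an interval of the fold from 0.71 to 1.11.

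The ETS factors Etv5 and Elf3 also overlapped. Etv5 was at 65.9, 72.4, 49.2, 60.6 and 48.3 CPM in ALDHbr recipients 1 to 5 and at 73.8, 78.7, 53.6, 55.6 and 49.4 CPM in ALDHdim recipients 1 to 5, a log2 fold change of −0.09 (SE 0.17, and 0.02 without ALDHdim 2). Replicates 1 and 2 held the highest values in each group. Elf3 was at 19.0, 25.4, 15.5, 22.0 and 7.5 CPM in the ALDHbr group and at 22.7, 21.7, 16.2, 21.9 and 21.4 CPM in the ALDHdim group. ALDHbr 5 was lowest, and from its 9 counts the counting interval runs from 4.12 to 17.1 counts. The log2 fold change of Elf3 was −0.26 (SE 0.25), with the widest interval of the 7 on the log2 scale, a fold of 0.57 to 1.21. It was −0.05 without ALDHbr 5 and 0.04 without both ALDHbr 3 and ALDHbr 5.

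**Figure D2:**
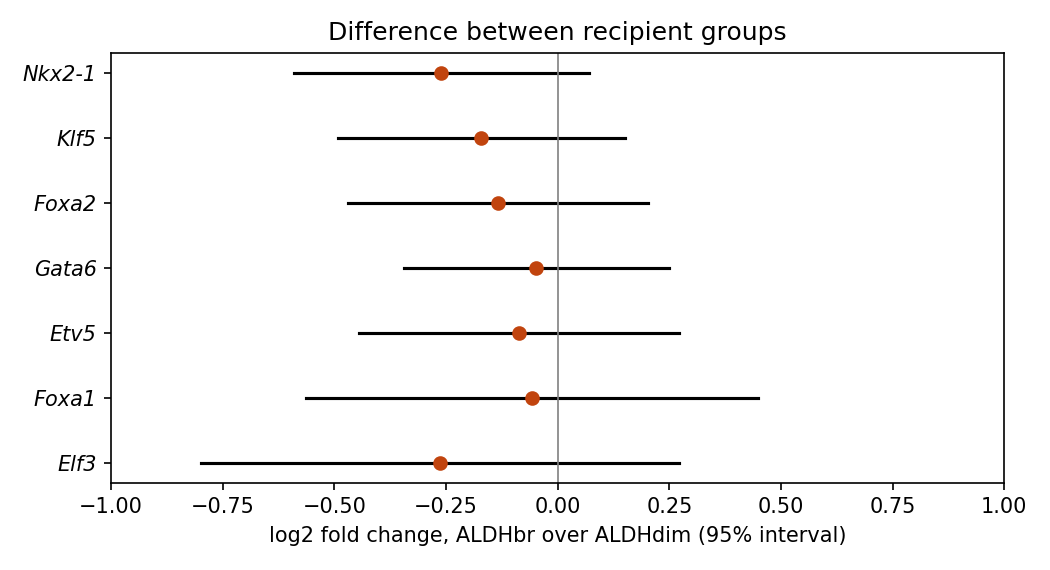
Log2 fold change of each factor (horizontal axis, ALDHbr over ALDHdim, points) with its 95% interval (lines) from edgeR over 10 libraries. Each point lies below 0, and each interval crosses 0.

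ALDHbr 5 held the lowest level of 6 of the 7 factors, the exception being Gata6, which was lowest in ALDHbr 4. The summed level of the 7 was 357 CPM there, against 422 to 566 CPM in the other libraries. General epithelial genes (Epcam, Cdh1 and others) were lowest in ALDHbr 5 too, at a summed 1108 CPM against 1173 to 1549 CPM elsewhere, and its club cell score was the lowest at −0.79. Its alveolar type 1 (−0.16), ciliated (−0.51) and cardiac muscle (−0.73) scores were the lowest as well. The alveolar type 2, smooth muscle, mesothelial, endothelial, fibroblast and macrophage scores were lowest in other libraries. Per 100 CPM of general epithelial genes, the 7 factors summed to 38.1 ± 5.99 CPM with ALDHbr cells and 38.3 ± 6.08 CPM with ALDHdim cells. In ALDHbr 5 this ratio was 32.3 CPM, near the low end of the range of 32.1 to 46.2 CPM over all libraries. None of the 7 factors was related past the threshold to the general epithelial score, as given below, so the ratio need not correct for epithelial content. The part of epithelial content in the factors' lower estimates was not tested. As a share of all counts, the general epithelial genes took 0.116 ± 0.0117% with ALDHbr cells and 0.135 ± 0.0146% with ALDHdim cells. An exact two-sided permutation test gave p = 0.063, or 0.35 when adjusted over 12 measures, where the smallest p that 5 libraries against 5 allow is 0.0079.

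The factors' proportions among their summed counts overlapped between groups. Nkx2-1 made up 29.7 ± 3.58% of the 7 factors' counts in ALDHbr and 32.2 ± 1.36% in ALDHdim recipients, and Klf5 made up 18.02 ± 2.15% and 17.9 ± 1.94%. Foxa2 took 13.8 ± 0.789% and 13.8 ± 2.23%, and Gata6 14.4 ± 2.27% and 13.3 ± 1.44%. In ALDHdim 2, Foxa2 made up 9.84% of the 7 (95% Wilson interval 8.23 to 11.7%, counting error only), with 3.45 Nkx2-1 counts per Foxa2 count. The other 9 libraries had 1.74 to 2.55 Nkx2-1 counts per Foxa2 count.

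Pearson r between levels of the factors across the 10 libraries was positive in each of the 21 pairs, with a median of 0.55. No such figure is given here for pairs of other genes, and the 21 pairs share genes, so they are not independent. Whether the positive signs are particular to the factors was not tested. Many of these r values leaned on ALDHbr 5. Without it, r went from 0.59 to 0.12 for Nkx2-1 and Elf3, from 0.57 to 0.11 for Elf3 and Klf5, and from 0.54 to 0.10 for Foxa2 and Elf3. Gata6 and Klf5 had r = −0.18 without ALDHbr 4 and −0.05 with levels centred within each group. After adjustment over the 21 pairs, 1 pair passed. Foxa1 and Klf5 had r = 0.85 (permutation p = 0.0019, adjusted p = 0.0399) and Spearman rho with an adjusted p of 0.0044. Without the 2 libraries farthest from the Foxa1 median r was 0.69, and the pair did not pass there. It was also lost without ALDHbr 2, 3, 4 or 5 or ALDHdim 2, 4 or 5, each with r of 0.79 or more. Foxa1 and Etv5 had r = 0.81 (permutation p = 0.0054, adjusted p = 0.056). Gata6 and Klf5 were the least related, with r = 0.01. Points share the library, its scaling and its tissue makeup, so these are relations between lung samples and not between cells.

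Across libraries Klf5 followed the genes of club cells, the secretory cells of the airway. The club score is the mean over 12 genes of log2 CPM centred per gene. Klf5 and this score had r = 0.98 and rho = 0.93 over the 10 libraries (permutation p = 2e-05, adjusted p = 0.0014 over 70 relations of the 7 factors with 10 cell type scores). Without the 2 libraries farthest from the median of the score r was 0.97 (exact permutation p = 0.0005), and r was 0.99 with levels centred within each group. The relation passed under 16 of 16 alternatives, with adjusted p from 0.00019 to 0.035. These relations were computed after Scgb3a1 (r = 0.97) and Chad (r = 0.97), both in the club list, had been seen to be the genes most like Klf5. With those genes out of the score, r was 0.97, but in the same libraries, so it is not independent support. Klf5 also had r = 0.77 with the ciliated score and 0.74 with the alveolar type 2 score, neither past the threshold. Among single club cell genes, r with Klf5 was 0.93 for Cyp2f2, an oxidase of foreign compounds, 0.87 for the secretoglobin Scgb1a1 and 0.50 for Bpifa1.

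**Figure D3:**
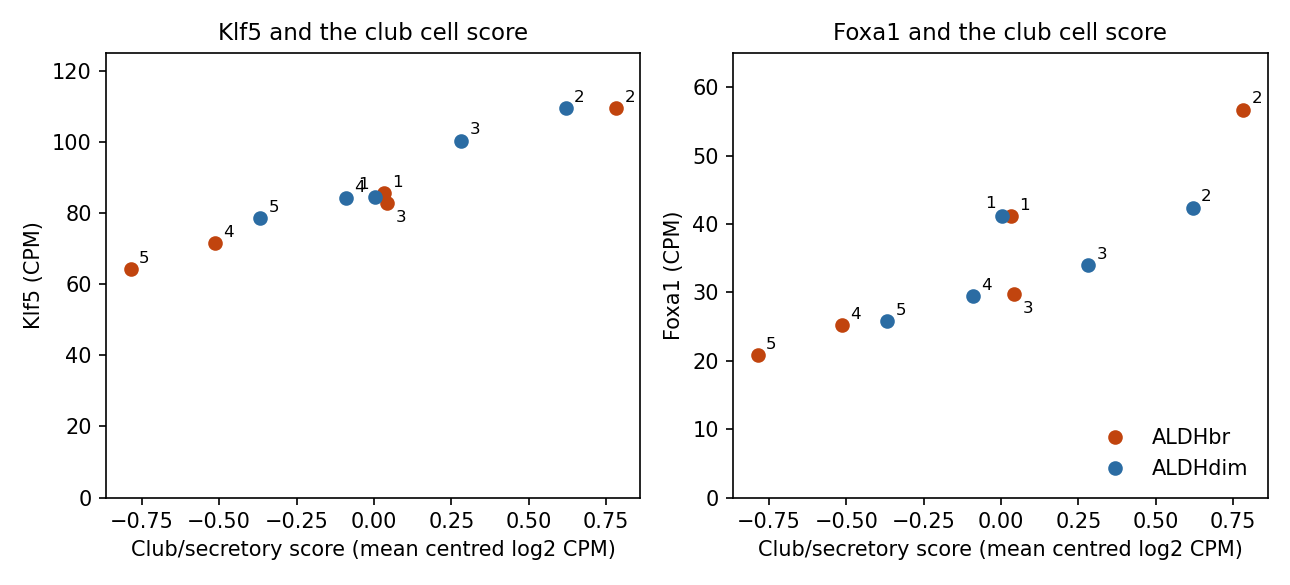
Klf5 (left) and Foxa1 (right) in CPM on the vertical axes against the club cell score on the horizontal axes, 1 point per library, orange for ALDHbr and blue for ALDHdim, digits giving the replicate. ALDHbr 5 and ALDHbr 4 lie lowest on both axes, and ALDHbr 2 and ALDHdim 2 have the highest scores.

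A further 4 of the 70 relations passed. Foxa1 followed the club score (r = 0.91, rho = 0.89, adjusted p = 0.0087) and the alveolar type 2 score (r = 0.85, rho = 0.89, adjusted p = 0.038). Nkx2-1 followed the smooth muscle score (r = 0.86, rho = 0.92, adjusted p = 0.033), and Etv5 the endothelial score (r = 0.84, rho = 0.77, adjusted p = 0.046). All 4 adjusted p-values are for r and come from permutation tests. None of these 4 passed without the 2 libraries farthest from the median of the score, where r was 0.77, 0.87, 0.90 and 0.80 in the order given. By rho, 4 of the 70 relations passed, and Etv5 with the endothelial score did not (permutation adjusted p = 0.13). The call for Foxa1 with the club score was lost without ALDHbr 2 (r = 0.86, permutation adjusted p = 0.051) or ALDHbr 4 (r = 0.89, permutation adjusted p = 0.056). That for Foxa1 with alveolar type 2 genes was lost without any of ALDHbr 2, 3, 4 and 5 and ALDHdim 2, 3 and 5 (r of 0.83 to 0.87). That for Nkx2-1 was lost without any of ALDHbr 1, 2 and 4 and ALDHdim 2, 3 and 5 (r of 0.81 to 0.88). That for Etv5 was lost without any library but ALDHbr 1 and ALDHdim 4 (r of 0.77 to 0.88). Nkx2-1 had r = 0.43 with the alveolar type 2 score and 0.48 with the club score, neither past the threshold. Foxa2, Gata6 and Elf3 passed with none of the 10 scores. Foxa2 had its highest relation with alveolar type 1 genes (r = 0.65, permutation p = 0.043, adjusted p = 0.21).

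**Figure D4:**
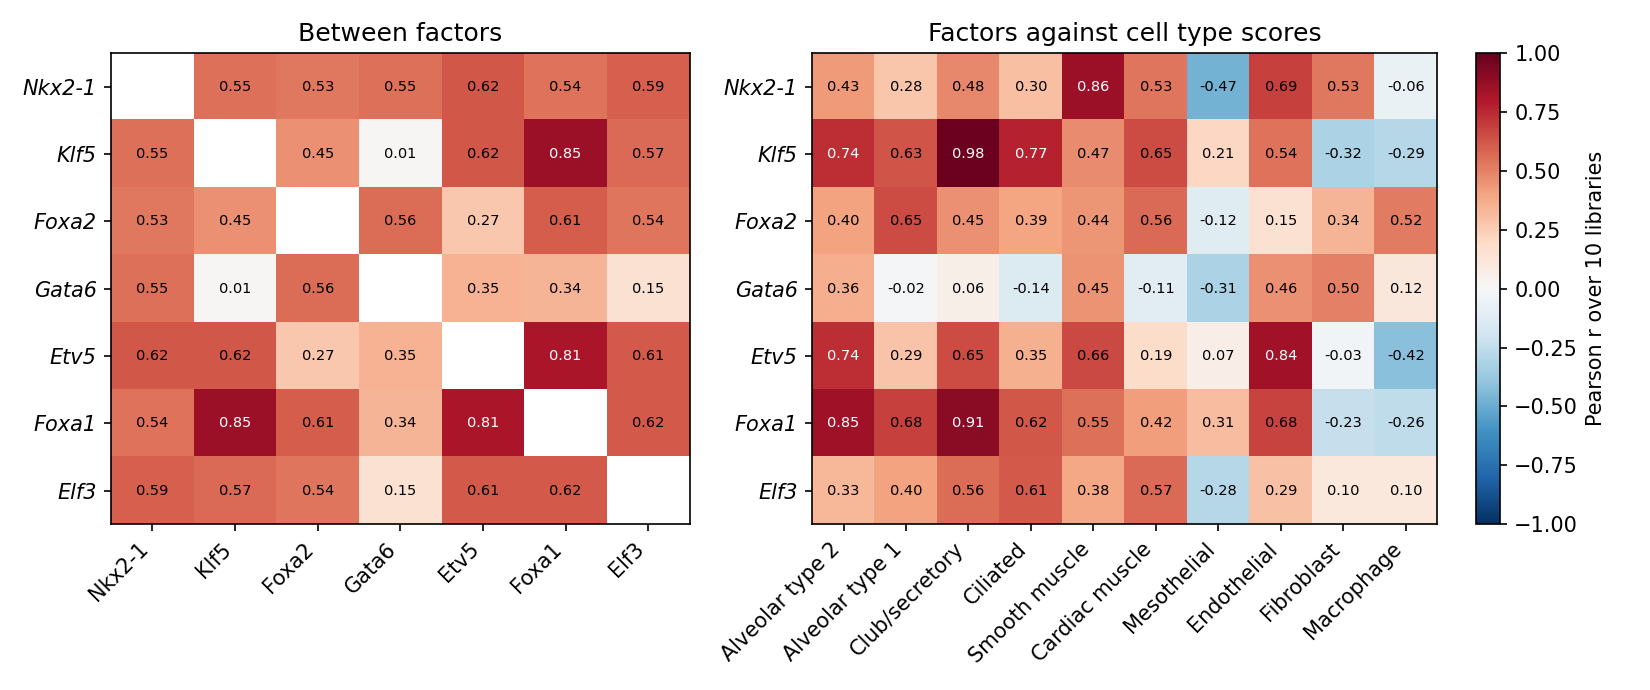
Pearson r over 10 libraries between the factors (left) and between each factor (rows) and the mean level of each cell type list (columns, right), with the colour scale running from −1 to 1. The square of Klf5 and club genes is the darkest at 0.98, and the highest r of Gata6 in either panel is 0.56, with Foxa2.

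None of the 7 factors was related past the threshold to the score of general epithelial genes, which holds none of them. Foxa2 (r = 0.65, permutation p = 0.037, adjusted p = 0.26 over 7 relations) and Elf3 (r = 0.60, permutation p = 0.094, adjusted p = 0.33) had the highest values, and Etv5 the lowest (r = −0.01). Without the 2 libraries farthest from the median of that score, Foxa2 had r = 0.48 and Elf3 r = 0.15.

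The genes whose pattern over the 10 libraries was most like each factor were taken by highest Pearson r among 10452 others, as a description with no test. They were Bcl2l11 (0.97), Pcnt (0.97) and Tecpr1 (0.97) for Nkx2-1, and Zrsr1 (0.97), Prss8 (0.97) and Fam76a (0.96) for Foxa1. For Etv5 they were Mtmr9 (0.96), Ctdspl (0.94) and Egln1 (0.94). For Klf5, Atp7b (0.95) followed Scgb3a1 and Chad. The best values were lower for Foxa2 (Abcd2, 0.91), Gata6 (Dennd2a, 0.89) and Elf3 (Neurl4, 0.92). Prss8, a membrane-bound serine protease of epithelium, is the only one of these that the general epithelial list holds.

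Genes of the epithelial cell types in which these factors act included some of the most abundant, and none was called. Of 12 alveolar type 2 genes 5 had higher and 7 lower estimates in ALDHbr recipients (median −0.13). Sftpb, whose promoter is printed above, had a log2 fold change of −0.13 (SE 0.19) at 3137 CPM with ALDHbr and 3421 CPM with ALDHdim cells, and Sftpa1 one of 0.05 (SE 0.27). Muc1, a membrane mucin, had the smallest p of that list (−0.31, SE 0.16). Alveolar type 1 genes had 7 higher and 5 lower of 12 (median 0.02), with Ager at 0.09 (SE 0.17) and Hopx, a homeodomain-only protein, at 0.30 (SE 0.23). The club list had 4 higher and 8 lower of 12 (median −0.16), with Scgb1a1 at 0.0058 (SE 0.32) and Scgb3a1 at −0.24 (SE 0.39). By smallest p the club genes were Bpifa1 at −0.69 (SE 0.39), Sec14l3 at −0.22 (SE 0.16) and Scgb3a2 at 0.42 (SE 0.38). Ciliated cell genes had 5 higher and 7 lower of 12 (median −0.13). General epithelial genes had 1 higher and 13 lower of 14 tested (median −0.14), with Epcam at −0.12 (SE 0.12), Cdh1 (E-cadherin) at −0.29 (SE 0.16) and Esrp1, an epithelial splicing regulator, at −0.41 (SE 0.22). By edgeR, DESeq2 and limma-voom 0 genes passed in any of these lists, and 1, the ciliated cell gene Foxj1, had an unadjusted p under 0.05 in edgeR.

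Genes of stomach and gut, which Nkx2-1 is known to hold back, were scarce in all libraries. Of 17 listed genes 15 were in the table, and 1, Tff2, passed the count filter. Tff2, a trefoil peptide also made in lung, stood at 15.8 and 21.6 CPM with ALDHbr and ALDHdim cells in that order (log2 fold change −0.60, SE 0.47). Hnf4a, a master regulator of gut and liver, had 5 counts over all 10 libraries, Gkn1 and Cdx2 had 1 count each, and Muc5ac had 10 counts. The list took 0.0015 to 0.0059% of all counts.

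Among the factors' relatives the lung used some paralogs and hardly others. Foxa3, the third Foxa gene, had 11 counts over all libraries, Etv4, the partner of Etv5 in FGF signalling, 24 counts and Gata4 15 counts, and none of them could be tested. Gata2 averaged 68.5 CPM, Etv1 16.1 CPM, and the Elf3 relatives Ehf and Elf5 23.6 and 18.6 CPM. Of 21 tested relatives 9 had higher and 12 lower estimates (median −0.09), and 1 had an unadjusted p under 0.05. That gene was Ehf, an epithelial ETS factor, at 19.0 and 28.1 CPM (log2 fold change −0.62, SE 0.23, edgeR adjusted p = 0.99925). Etv1 (0.49, SE 0.28) and Elf2 (0.23, SE 0.14) followed by p.

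Other regulators of lung epithelium gave no call. Of 25 tested, 10 had higher and 15 lower estimates (median −0.09), 0 passed by edgeR, and 4 had an unadjusted p under 0.05. Foxp4, a forkhead repressor, was at 21.9 and 31.4 CPM (−0.53, SE 0.18), and Foxj1, the switch gene of ciliated cells, at 103 and 129 CPM (−0.33, SE 0.14), and Ehf, given above, was the third. Myb, which acts in dividing progenitors and early multiciliated cells, was at 29.3 and 18.6 CPM (0.58, SE 0.25).

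Genes of FGF and ERK signalling, the pathway that induces Etv5, gave no call either, among them ligands, receptors, feedback inhibitors and targets. Of 17 tested, 7 had higher and 10 lower estimates (median −0.06). The ligand Fgf7 averaged 27.4 CPM and Fgf10 11.7 CPM, and the receptor Fgfr2 78.6 CPM with a log2 fold change of −0.07 (SE 0.22). Dusp6, an ERK phosphatase that ERK signalling induces, was at 134 and 108 CPM (0.33, SE 0.17), Fgfr1 at 50.9 and 66.6 CPM (−0.33, SE 0.18), and Etv1, given above, was the third by p. The feedback inhibitors of the Sprouty family lay on both sides of 0, with Spry1 at −0.30 (SE 0.21), Spry2 at 0.20 (SE 0.20) and Spry4 at 0.34 (SE 0.27).

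Lists of other tissue in the lung pieces are given for comparison. Smooth muscle genes had 1 higher and 7 lower of 8 (median −0.10), endothelial genes 2 and 6 of 8 (−0.07), fibroblast genes 2 and 6 of 8 (−0.13), macrophage genes 1 and 7 of 8 (−0.15), cardiac muscle genes 0 and 7 of 7 (−0.43) and mesothelial genes 5 and 2 of 7 (0.32). Within each list 0 genes passed by edgeR, while 3 cardiac and 2 mesothelial genes had an unadjusted p under 0.05. The summed shares of 11 cell type lists and the total counts gave exact permutation p-values between 0.063 and 0.94, with adjusted values between 0.35 and 0.94.

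Counting could mix a factor with an antisense neighbour, since the sources used here do not say whether strand was used. On GRCm38, Nkx2-1 lies on chromosome 12 from 56531958 to 56536908 and overlaps the antisense gene Gm26973, which had 16 counts over all libraries against 2021 for Nkx2-1. Gata6, on chromosome 18 from 11052064 to 11085635, overlaps 1010001N08Rik on the other strand, with 25 counts against 869. Elf3, on chromosome 1 from 135253575 to 135258568, is overlapped over its whole length by the antisense gene Gm26642, which was not analysed here. Foxa1 (chromosome 12, 57540628 to 57546916), Foxa2 (chromosome 2, 148042877 to 148046969), Etv5 (chromosome 16, 22381309 to 22439719) and Klf5 (chromosome 14, 99298691 to 99315036) overlap no other annotated gene. These are whole-gene spans, and counts were summed per gene.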

How the data were processed

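Lung RNA in 10 samples from bleomycin-treated mice was counted by a 3′ method, BRB-seq (per the labels), with sample barcodes and unique molecular identifiers. The authors deposited raw counts for each gene. The submitters' processing notes name HISAT2 2.2.1, Trim Galore 0.6.7, UMI-tools, featureCounts 2.0.1 and DESeq2, and the builds GRCm38 and GRCh38. Collapsing of identifiers, strand and annotation were not given in the sources used here, and intervals on counts cover counting error only.

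Genes kept by filterByExpr (minimum count 10) numbered 10844 and held 97.3% of counts. After TMM scaling, edgeR 4.0.16 (R 4.3.3, robust glmQLFit and glmQLFTest, group as the only term) tested ALDHbr against ALDHdim, with Benjamini-Hochberg adjustment over all of them and a threshold of 0.05. Each SE is the absolute log2 fold change divided by the square root of F. The fit was tested on simulated data. Log2 CPM used a prior count of 2. Between any pair of libraries chi-square per degree of freedom was at least 2.21, more than counting error alone gives, so none was the same library counted again. This value cannot tell whether 2 libraries came from 1 animal. Correlations used 100000 permutations over 10 libraries and all permutations over fewer.

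The members and lists were chosen with earlier results of these data known. Named genes are the 7 factors, up to 3 genes of smallest p per list, the first 2 genes of 4 epithelial lists, and the 3 genes most like each factor, of which some are left out here. Genes named beyond these (relatives and gut genes with few counts, some FGF genes, single club genes) were chosen after their values were seen, as were the motifs and the cell type score relations. Positions are from GENCODE M21. Alternatives were other scaling and filters, DESeq2 1.42.0 (with no low-count filter), limma-voom (limma 3.58.1), the replicate number as a term, and libraries left out.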

Additional observations from a re-analysis of the deposited data

Results flagged for a closer look

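Within each group of 5 libraries, the library farthest from its neighbours was compared with the group's range. Of 58 such sets, 5 had a gap taking over 0.71 of the range, against 2.9 expected, since chance flags about 1 set in 20. In ALDHdim 2, Nkx2-1 had 3.4455 counts per Foxa2 count, while its 4 companions had 2.096 to 2.202 (gap of 0.921 of the range). Foxa2 made up 9.839% of the 7 factors' counts there, against 14.1 to 15.2% (0.809). Both of these flags hold the same Foxa2 count, and the sets share counts, so they are not independent and the expected number is only a guide. In ALDHbr 4, Foxa2 made up 12.454% of the 7, against 14.0 to 14.4% in the other ALDHbr libraries (0.778). Elf3 was at 16.161 CPM in ALDHdim 3, with the rest of that group at 21.4 to 22.7 CPM (0.803). Gata6 was at 81.635 CPM in ALDHdim 1, against 60.4 to 66.5 CPM (0.712), although ALDHbr 1 held a like level of 81.1 CPM.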

How the results depend on the processing

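The count of 0 genes past the threshold held under each alternative except edgeR without a low-count filter, which gave 185, none of them a factor. The factors' log2 fold changes stayed under the threshold throughout. When single libraries were left out they ranged from −0.24 to 0.0879 for Foxa1, −0.16 to 0.0230 for Gata6 and −0.16 to 0.0211 for Etv5. Without both ALDHbr 3 and 5 they were 0.17 for Foxa1, 0.0716 for Etv5 and 0.0406 for Elf3. Nkx2-1, Foxa2 and Klf5 kept their sign under each alternative. The median over all genes was 0.22 in edgeR without the filter and 0.28 in DESeq2, where the factors' medians were −0.19 and −0.15. DESeq2 was also run without that filter, so both medians are over 33347 genes, against 10844 in the main fit, and are not over a like set.

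The group difference in summed share turned positive as summed CPM for alveolar type 2 (1221 CPM), club (219 CPM) and ciliated genes (19.3 CPM). With single libraries left out it ranged from −0.364 to 0.162 percentage points for alveolar type 2, −0.0080 to 0.052 for alveolar type 1, −0.847 to 0.235 for club, −0.012 to 0.0055 for ciliated and −0.032 to 0.0066 for endothelial genes. Without both ALDHbr 3 and 5 it was 0.144, 0.283, 0.0055, 0.0060 and 0.0087 for alveolar type 2, club, ciliated, smooth muscle and endothelial genes.

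The count of factor pairs past the threshold, 1, was 2 with DESeq2 size factors, 0 without both ALDHbr 3 and 5, 0 without the 2 libraries farthest from the median and 0 to 1 with single libraries left out. Correlation with general epithelial genes changed sign for Etv5 (rho 0.042, 0.00011 with DESeq2 size factors, −0.33 to 0.13 leaving out single libraries). It did so for Klf5 (−0.10 centred within groups, −0.32 to 0.28) and Foxa1 (−0.33 to 0.26). Without both ALDHbr 3 and 5 it was −0.033, −0.41 and −0.38 for Nkx2-1, Foxa1 and Klf5, and without the 2 farthest libraries −0.016, −0.24 and −0.35.

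The count of cell type relations past the threshold, 5, was 4 by rho and 3 centred within groups. It was 1 without the 2 farthest libraries, 1 without both ALDHbr 3 and 5, and 1 without both ALDHbr 2 and ALDHdim 2. With single libraries left out it was 1 to 7. For the 4 relations that were lost in some of these, r stayed high. With the 2 farthest libraries, both ALDHbr 3 and 5, and both ALDHbr 2 and ALDHdim 2 left out, in that order, r was 0.87, 0.85 and 0.83 for Foxa1 with alveolar type 2, 0.77, 0.88 and 0.82 for Foxa1 with club, 0.90, 0.89 and 0.86 for Nkx2-1 with smooth muscle, and 0.80, 0.81 and 0.81 for Etv5 with endothelium. Centred within groups the last 2 were 0.85 and 0.84, and the last had rho 0.77 and r 0.83 with DESeq2 size factors. Leaving out single libraries gave 0.83 to 0.87, 0.86 to 0.93, 0.81 to 0.91 and 0.77 to 0.88. All these alternatives for cell type scores were chosen after seeing the data.

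With the replicate block 0 genes passed and the 7 factors had a median of −0.15. In that edgeR fit 6.7% of genes had an unadjusted p under 0.05, against 3.71% without the block. Same-numbered libraries correlated in their deviations by 0.062 to 0.37, and in 2 of 5 pairs each library was most like its own number. These values cannot tell whether same-numbered libraries share a block. The labels do not call the numbers pairs, and the fit with group as the only term was kept.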
